A study of Mus musculus with 6 samples.

Results

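The mouse miRNAs whose names carry a number of 5000 or more were examined in small RNA libraries of prefrontal cortex. They were picked by name alone: every listed sequence called mmu-miR- or mmu-mir- followed by such a number, with entries of the same sequence added up. This gave 126 of the 1013 distinct sequences in the table, from 112 hairpins, against 646 sequences with any other mouse miRNA name. The exposed animals were male C57BL/6 mice, an inbred strain, gavaged once a day for 6 months with PS NPs (polystyrene particles of nanometre size, here PS-NP) at 50 mg per kg body weight. Control mice of the same strain, sex and age (30 weeks at sampling) were given water, at 0 mg per kg. Each group had 3 libraries, and the study sought marker miRNAs of brain injury by this exposure. The labels give no particle diameter. They also do not say that the libraries were made from different animals, so the p-values reflect how far the 6 libraries spread, which may be technical.

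A miRNA is cut from a hairpin in a longer transcript, normally by the Drosha complex in the nucleus and then by Dicer, and the strand kept in an Argonaute protein pairs with targets through its seed, bases 2 to 8. Names are given in order of discovery, so high numbers were handed out late, mostly after deep sequencing, and they often belong to weakly expressed hairpins. Some of them are mirtrons, hairpins that are short introns released by the spliceosome without Drosha, so that one or both ends of the hairpin lie at a splice site. In a tailed mirtron one end lies at a splice site and the rest of the intron forms a tail.

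Of the 12 most abundant of these sequences, 11 are shown as the table lists them, 5′ to 3′, with the seed in capitals, because they hold most of the reads discussed here.
miR-6540-5p: cTAAGGCAggcagacttcagt
miR-5099: tCTTAGATcgatgtggtgctc
mir-6236-p5: aAATGGATggcgctggagc
miR-7689-3p: tTAGAGCCagactgcctgggttt
mir-6240-p3: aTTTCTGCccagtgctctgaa
miR-7080-3p: cAGGCTCAcccctccgttccct
miR-7224-3p: tCTCCACTgagaggaccaccca
miR-8114: tCACCCATctcctctccgcctcg
miR-6944-3p: tAACTCTTcccttgtgccctcag
miR-7019-3p: tCACCTTGgccgcctctctgcag
miR-6516-5p: tTTGCAGTaacaggtgtggacatcc
All 126 sequences had different seeds, counted from the starts as listed, which are shifted for some. A seed was shared with another mouse miRNA of the table by 10 of them, among them miR-5129-3p with miR-455-5p, miR-6395 with miR-328-3p and miR-12200-5p with miR-495-3p.

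Libraries held 7726729, 8440665 and 9905746 reads with PS-NP and 9445601, 6170654 and 6441890 in controls. Neuronal marker miRNAs (5 of 5 listed, miR-124-3p among them) summed to 151551 to 207500 CPM (read counts scaled to a fixed total after TMM adjustment of the library size) with PS-NP and 177595 to 188257 CPM in controls. The liver marker miR-122-5p stood at 5.25 to 8.25 and 4.68 to 6.29 CPM with PS-NP and control. Vessel markers (3 of 3 listed) summed to 5598 to 7058 CPM with PS-NP and 4350 to 5523 CPM in controls, and microglial and leukocyte markers (3 of 4 matched, miR-142a-3p not) to 27.9 to 32.5 and 18.6 to 25.3 CPM. For these 2 lists the PS-NP libraries lay above the controls, and their part in the differences given here was not tested. The other lists looked at (neuron, liver, oligodendrocyte, erythroid, choroid plexus, striated muscle, pancreas and pituitary) overlapped between the groups. Choroid plexus markers summed to 2056 to 7218 CPM with PS-NP and 1771 to 5619 CPM in controls. In whole tissue, fewer cells of a type and less RNA per cell cannot be told apart.

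The late-numbered names were a very small part of the cortical small RNA. They held 4536, 5302 and 7625 reads in PS-NP libraries 1, 2 and 3, and 6316, 6678 and 3633 reads in control libraries 1, 2 and 3. As a share of all reads that was 0.0662% ± 0.00958 with PS-NP and 0.0772% ± 0.0274 in controls (SD, n = 3 each). The highest share was that of control library 2 (0.108%) and the lowest that of control library 3 (0.0564%), so the controls enclosed the PS-NP libraries, at 0.0587% to 0.0770%. The difference of −0.0110 percentage points between the group means turned to 0.00454 without control library 2. A mean of at least 100 reads was reached by 9 of the 126 sequences, and 71 had a mean under 5 reads. Among the other mouse names these counts were 366 and 102 of 646, and the median of the mean read number was 3.83 for the late-numbered names against 173 for the others.

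**Figure D1:**
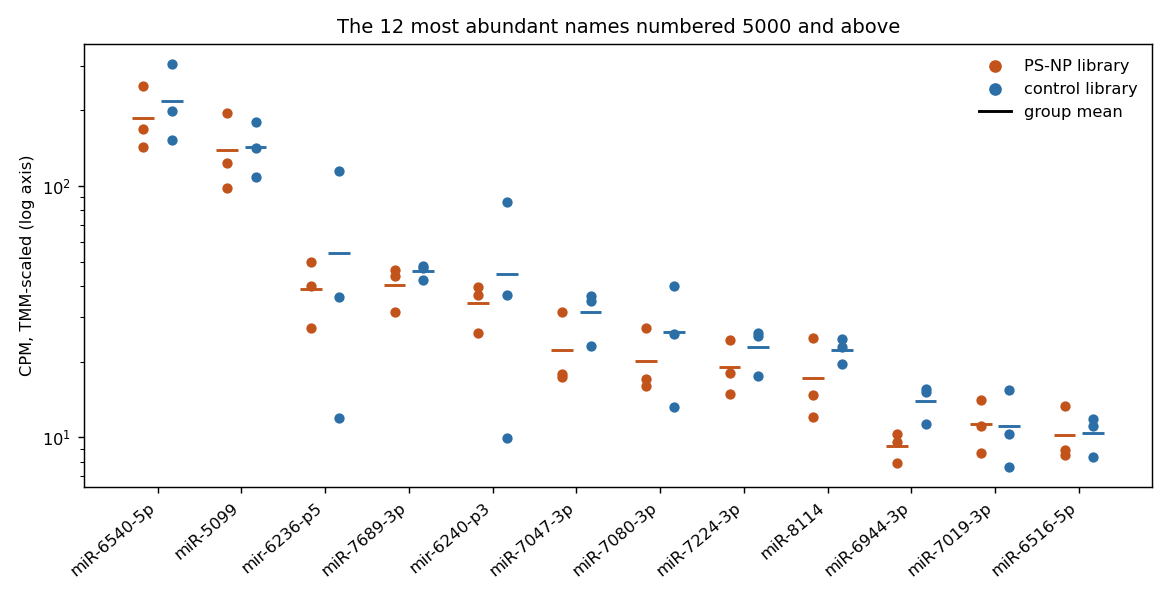
CPM (TMM-scaled, log axis) of the 12 most abundant names numbered 5000 and above, one point per library, PS-NP on the left and control on the right of each name, with lines at the group means. The points of the groups overlap for 11 of the 12 names, and mir-6236-p5 and mir-6240-p3 spread most, from 11.9 to 114 CPM and from 9.95 to 86.6 CPM over the control libraries.

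Detection was patchy. Of the 126 sequences, 35 (27.8%) had reads in all 6 libraries, 51 in 2 to 5 and 40 (31.7%) in 1 library, against 495 (76.6%), 98 and 53 (8.20%) of the 646 other mouse names. The share with reads in all 6 was 83.3% for names numbered below 500, 70.0% from 500 to below 2000 and 46.4% from 2000 to below 5000. Among the late numbers it was 21.1% from 5000 to below 6000, 50.0% from 6000 to below 6500, 28.6% from 6500 to below 7000, 23.8% from 7000 to below 8000 and 30.8% for 8000 and above. The number of late-numbered sequences with reads was 60, 70 and 84 in PS-NP libraries 1, 2 and 3, and 79, 74 and 55 in control libraries 1, 2 and 3. The library with the most reads in all, PS-NP library 3, had the most of them, and control library 3, with few reads in all, had the fewest. Control library 2 had the fewest reads in all (6170654) but reads for 74 of them, more than PS-NP libraries 1 and 2. The table rarely lists values of a few reads: of the 422 values above 0, 63 were exactly 5 and 3 were lower, all 3 of miR-6395. A 0 in the table may therefore hide some reads, and it was given no upper bound.

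**Figure D2:**
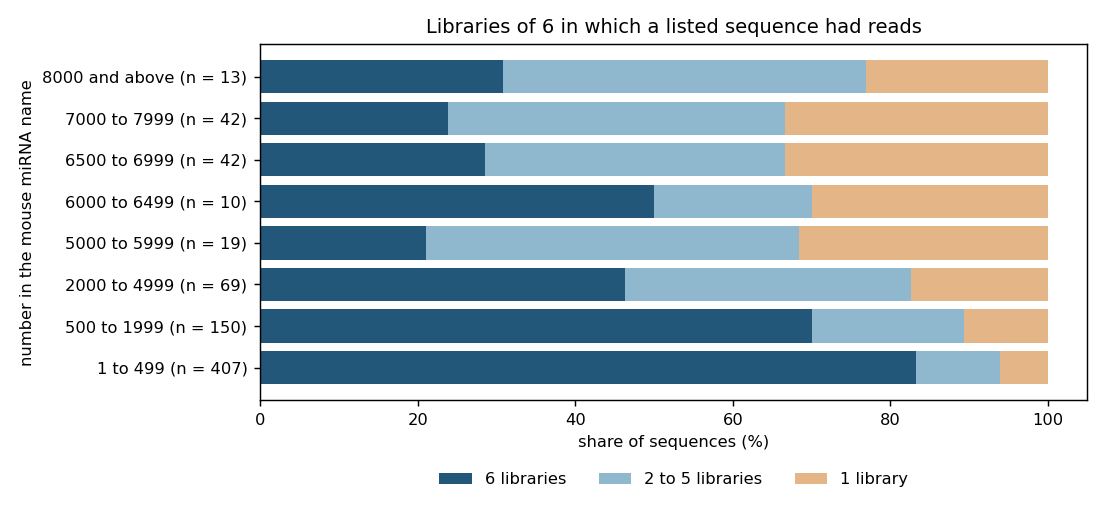
Share of sequences (%) with reads in 6, in 2 to 5 or in 1 of the 6 libraries, by the number in the mouse miRNA name. The share in 6 libraries lies between 21.1% and 50.0% in the 5 blocks from 5000 upwards and at 83.3% for names numbered below 500.

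Among the abundant members, miR-6540-5p led. It lies in an intron of Gap43, which codes for a growth-cone protein of neurons, on chromosome 16, 42303426 to 42303446 (minus strand, GRCm38). It measured 143, 168 and 249 CPM in PS-NP libraries 1, 2 and 3, and 199, 305 and 152 CPM in control libraries 1, 2 and 3. The groups overlapped widely, with the highest value in control library 2. The log2 difference (PS-NP minus control) was −0.23 (SE 0.30, edgeR), and 0.091 without control library 2. The other strand of this hairpin, miR-6540-3p, had 1.5, 1.34 and 1.63 CPM with PS-NP and 1.97, 3.80 and 2.26 CPM in controls. Over the 6 libraries the 5p strand had 103 times the reads of the 3p strand.

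miR-5099, whose hairpin lies on chromosome 12, 36816205 to 36816278 (plus strand), where no gene is annotated on the same strand, was next. Its sequence as listed had no exact match in that hairpin. It measured 195, 123 and 98.3 CPM with PS-NP and 179, 141 and 109 CPM in controls, a log2 difference of −0.05 (SE 0.29) between overlapping groups. miR-7689-3p, on chromosome 5, 36301606 to 36301628 (plus strand), also with no gene annotated on that strand, followed. Its values were 46.2, 31.6 and 43.6 CPM with PS-NP and 42.3, 47.1 and 47.9 CPM in controls, with a log2 difference of −0.18 (SE 0.21) that was −0.043 when PS-NP library 2 was left out.

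Of the 12 most abundant sequences, mir-6236-p5 and mir-6240-p3 varied most between libraries. The mir-6236 and mir-6240 hairpins are known to hold sequence of large-subunit ribosomal RNA, a class that the labels' protocols say was filtered out, and in each the listed pieces are hairpin fragments (p5 and p3) without a mature name of their own. mir-6236-p5, on chromosome 9, 110281318 to 110281336, measured 40.1, 27.2 and 50.0 CPM in PS-NP libraries 1, 2 and 3, and 11.9, 114 and 36.3 CPM in control libraries 1, 2 and 3. mir-6240-p3, on chromosome 5, 114852016 to 114852036, measured 26.0, 39.6 and 36.8 CPM with PS-NP and 9.95, 86.6 and 36.8 CPM in controls. In both, control library 1 was the lowest and control library 2 the highest of the 6, and mir-6240-p5 followed the same order at its ends, with 1.5, 1.89 and 3.98 CPM with PS-NP and 0, 7.60 and 1.61 CPM in controls. mir-6236-p3 did not, with 1.20, 0 and 1.81 CPM with PS-NP and 2.20, 2.05 and 0.968 CPM in controls. As listed, neither mir-6240-p5 nor mir-6236-p3 had an exact match in its hairpin. The log2 differences were −0.47 (SE 0.66) for mir-6236-p5 and −0.38 (SE 0.61) for mir-6240-p3, and without control library 2 these differences were 0.70 and 0.55. What set the level in control library 2 was not tested.

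**Figure D3:**
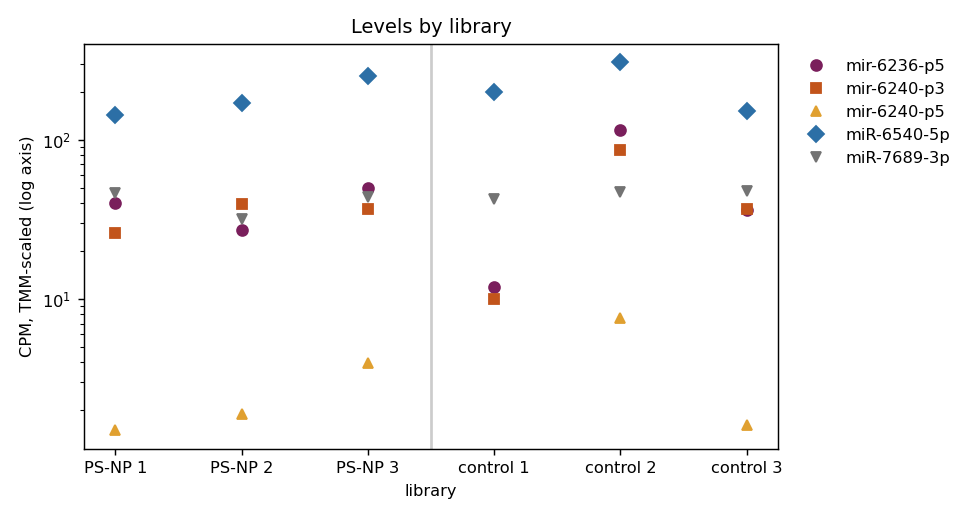
CPM (TMM-scaled, log axis) of 5 sequences in each library, PS-NP libraries left of the line and control libraries right of it. The value of 0 for mir-6240-p5 in control library 1 is not drawn. mir-6236-p5 and mir-6240-p3 run from about 10 CPM in control library 1 (11.9 and 9.95) to 114 and 86.6 CPM in control library 2, while miR-7689-3p stays between 31.6 and 47.9 CPM.

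Counted as sequences, most late-numbered names came from hairpins at an intron end, but most of their reads did not. With the hairpins placed on GRCm38 by the GENCODE M21 and RefSeq annotations, 125 of the 126 sequences had a hairpin with a position. The hairpin filled an intron (both ends within 10 nt of its ends) for 7 sequences and lay at one end of an intron for 72, so 79 of 126 (62.7%) were at an intron end. Of the 646 other mouse names the same held for 32 (4.95%). By number, these others had 0.983% below 500, 7.33% from 500 to below 2000 and 24.6% from 2000 to below 5000. Among the late numbers the share was 88.1% from 6500 to below 7000 and 71.4% from 7000 to below 8000. It was 52.6% from 5000 to below 6000, 15.4% for 8000 and above and 0% (0 of 10) from 6000 to below 6500. The shares for 8000 and above and for 6000 to below 6500 were lower than that for 2000 to below 5000. Another 25 of the 126 lay inside an intron, 5 overlapped an exon and 16 had no annotated gene on the same strand. The 79 at an intron end held 0.0148% of all reads and the remaining 47 held 0.0560%. A mean under 5 reads was found for 48 of the 79 and for 23 of the 47.

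The 3′ ends of the small RNAs told the same position more finely. Of 65 intronic 3p sequences with a placed end, 21 ended exactly on the last base of the intron, 8 ended 1 nt, 12 ended 2 nt and 1 ended 3 nt before it, and 5 ended 1 base past it. Together 47 of the 70 late-numbered 3p sequences (67.1%) ended within 3 nt of the last base, against 16 of 314 (5.10%) of the other mouse 3p sequences. Among those others numbered from 2000 to below 5000 it was 27.8%. Introns end in AG, and 19 of the 70 late-numbered 3p sequences ended in these letters against 8 of the 314 others. Of those 8, 4 were numbered from 2000 to below 5000. Ahead of that AG an intron carries a run of pyrimidines, and the median share of C and T was 71.4% in the late-numbered 3p sequences and 54.5% in the others. The late-numbered 5p sequences had a median G content of 39.1%, against 27.3% in the other 5p sequences. Neither set of percentages was tested, since sequences are not sampled units here.

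**Figure D4:**
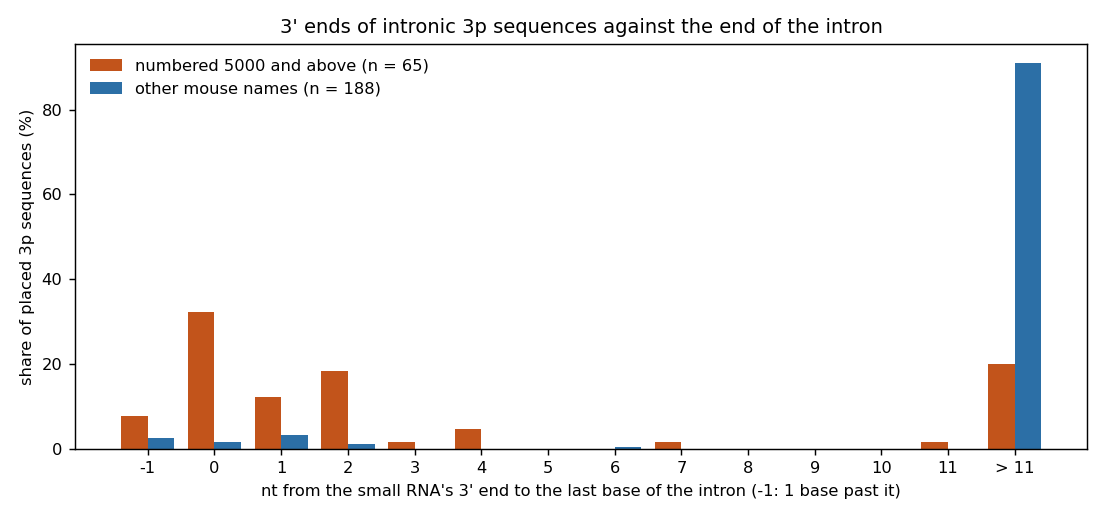
Share (%) of intronic 3p sequences by the distance in nt from their 3′ end to the last base of the intron, where -1 is 1 base past it, for 65 names numbered 5000 and above and 188 other mouse names. Of the late-numbered ones 21 end at 0, while 171 of the 188 others end more than 11 nt away.

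2 hairpins that are whole introns are shown, with the sequences found in the libraries in capitals. miR-6944-3p ends on the last base of its intron, and miR-7080-3p ends 4 nt before it, outside the 3 nt used above. Mir7080, chr8:123130106-123130172 (plus strand), is a whole intron of 67 nt in Cpne7, a copine gene for a calcium-dependent membrane-binding protein. Mir6944, chr13:55477681-55477776 (minus strand), is a whole intron of 96 nt in Dbn1, which codes for drebrin, an actin-binding protein of dendritic spines. The hairpins are RefSeq sequences of GRCm38.p6, and each begins with gu and ends with ag.
Mir7080: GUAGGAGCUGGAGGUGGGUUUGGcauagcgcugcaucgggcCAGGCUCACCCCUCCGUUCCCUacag
Mir6944: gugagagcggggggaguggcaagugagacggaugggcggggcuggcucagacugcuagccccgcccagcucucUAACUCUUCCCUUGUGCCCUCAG

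Further 3p sequences that end on the intron's last base are given with those last 2 bases in capitals. miR-7044-3p comes from Rasgef1a, miR-6958-3p from Dennd6b, miR-6989-3p from Map4k2 and miR-7046-3p from Rabac1.
miR-7044-3p: atgcagccccgaccctcacAG
miR-6958-3p: tcagctgcctcttgccatcacAG
miR-6989-3p: tgtccactgtctctggtcccAG
miR-7046-3p: tgaaccacccatccccctacAG
The 5 that ran 1 base past the intron all had a T there that differed from the first base of the next exon, shown in capitals.
miR-6914-3p: tctgtccacctcttcccagT
miR-12193-3p: ccggtcctttctgtccccagT
miR-5132-3p: ctgatgttccccatcccgcagT
miR-5134-3p: acgggtggccctctttctgcagT
miR-6903-3p: tgtgtgtctgtttttcccagT
The exon began with G in 4 of these genes and with C in Irak1, the host of miR-5132-3p. Within 3 nt of the intron end, 7 of 47 late-numbered 3p sequences had a last base that differed from the genome, and it was T in all 7. Among all other placed late-numbered sequences, whatever the position of the hairpin, this was so for 4 of 78. Of the other mouse names, 5 of 16 3p sequences ending within 3 nt of an intron end had such a last base. Among the rest of the placed ones 39 of 621 did. Addition of uridine to mirtron products is known from Drosophila. The 7 late-numbered cases within 3 nt of an intron end were low in reads, 20 or fewer in each library. The older mirtrons miR-877-3p and miR-1224-3p had the same form, ending 1 base past the intron with a T where the exon has G, at means of 1298 and 414.5 reads.

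Both arms were listed for 14 hairpins, with p5 and p3 fragments counted as 5p and 3p. The 3p arm had more reads in 8 of them. In 5 hairpins both arms had enough reads to be tested. For Mir6236 and Mir6240 these were the fragments described above, so their ratios are not those of mature strands. In the hairpins not tested, which arm is higher rests on few reads. Over all libraries, Mir5134 had 5 reads of 5p and 6 of 3p, and Mir6997 had 23 and 52. The log2 ratio of 5p to 3p reads of Mir7080 was −2.87 ± 0.86 with PS-NP and −2.89 ± 0.55 in controls, and that of Mir5129, at one end of an intron of the transcription factor gene Zeb2, −1.61 ± 0.59 and −1.47 ± 0.15. For Mir6540 the ratio was 6.83 ± 0.37 with PS-NP and 6.27 ± 0.30 in controls (SD, n = 3 each). An exact permutation test over libraries (2-sided, smallest possible p 0.1) gave p = 0.2 for Mir6540, 0.4 for Mir6240, 0.6 for Mir6236, 0.8 for Mir5129 and 1 for Mir7080, all with an adjusted p of 1 over the 5 hairpins. The 70 late-numbered 3p sequences outnumbered the 39 named 5p, and 17 names carry no arm. By reads the 3p share was 93.6% for numbers from 7000 to below 8000 and 15.7% from 6500 to below 7000, where miR-6540-5p dominates.

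GC content was higher than in the other mouse names, with a median of 57.5% (33.3% to 100%) against 48.9% (21.7% to 90.5%), and the median length was 22 nt in both. The extremes were miR-5126 at 100% GC, with reads in 4 libraries, and miR-6984-3p at 33.3%, with reads in 3. By arm, the median was 58.3% for late-numbered 5p and 56.5% for 3p sequences, against 47.8% and 50.0% for the others. The name nearest below the limit, mir-3970-p5, measured 1.27 to 1.78 CPM with PS-NP and 0.968 to 2.05 CPM in controls, and the lowest member by number is miR-5099.

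Some members share sequence with other RNAs or come from hairpins that overlap other genes, which limits what their reads can be assigned to. miR-6395 is the clearest case. The sequence listed under that name is marked as a form with T in place of G at base 18. With that T, it shares its first 18 bases, in capitals, with the abundant miR-328-3p.
miR-6395: CTGGCCCTCTCTGCCCTTt
miR-328-3p: CTGGCCCTCTCTGCCCTTccgt
It had 3.5, 4 and 5.5 reads with PS-NP and 6.5, 7 and 4.5 reads in controls, beside at least 42377 reads of miR-328-3p in each library. Values that are not whole remain under both names after entries of the same sequence were added up, and how those reads were divided is not stated. The hairpin of miR-5121, within 163 nt of intron in the ribosomal protein gene Rpl13a, overlaps the snoRNA Snord33. That of miR-6516-5p, in an intron of the long noncoding RNA Snhg20, overlaps the scaRNA Gm26083. The hairpin of miR-8114, which itself lies on chromosome 1, 153899989 to 153900011, overlaps an exon of Glul, the gene of glutamine synthetase. Whether the listed sequences themselves overlap these genes was not tested.

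The comparison of PS-NP with control cortex was made for the 39 of the 126 sequences that had at least 10 reads in at least 3 libraries. The other 87 were left out by this filter, and a fit without it, over all 126, called 0 and had 0 at an unadjusted p under 0.05. None of the 39 passed edgeR's quasi-likelihood test at an adjusted p of 0.05, and none of all 639 sequences tested did (0%), with a smallest adjusted p of 0.906. DESeq2 and limma-voom called 0 as well. At an unadjusted p under 0.05 stood 0 of the 39, against 15 of the 639 (2.35%; 1.41% higher and 0.939% lower with PS-NP). DESeq2 also had 0 of the 39 and limma-voom 1. The first late-numbered name by p, miR-6944-3p, ranked 16 over all. The median 95% interval reached 1.05 log2 units to either side for the 39 and 0.64 for all tested, so the interval of most of the 39 took in differences of about 2-fold. Both read number and spread between libraries enter that width.

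miR-6944-3p, the Dbn1 intron product on chromosome 13, 55477681 to 55477703, measured 9.60, 7.90 and 10.3 CPM with PS-NP and 15.1, 15.5 and 11.3 CPM in controls. All 3 PS-NP libraries were below all 3 controls. The log2 difference was −0.59 (95% interval −1.19 to 0.00), unadjusted p = 0.051 and adjusted p = 0.906 by edgeR. Without control library 3 its unadjusted p passed 0.05, as it did with limma-voom. miR-6948-3p, 1 nt from the end of an intron of Acin1 on chromosome 14, 54643050 to 54643070, measured 1.35, 0.890 and 0.543 CPM with PS-NP and 1.73, 1.61 and 2.90 CPM in controls. It had 9, 8 and 6 reads with PS-NP and 15, 11 and 18 reads in controls, so it met the filter of 10 reads in 3 libraries only through the controls. Its log2 difference of −1.18 (−2.55 to 0.19, adjusted p = 0.906 by edgeR) is therefore a description of a sequence that had to be higher in controls to be kept.

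Groups failed to overlap in 4 of the 39 tested late-numbered sequences (10.3%) and in 61 of all 639 tested (9.55%). In all 4 the PS-NP libraries were the lower ones, a pattern found in 29 of the 639 (4.54%), while the reverse was found in 32 of the 639 (5.01%) and 0 of the 39. For miR-6948-3p the read filter fixed that direction. The remaining 2 of the 4 were miR-6540-3p, given above, and miR-8112, with 1.65, 3.78 and 2.35 CPM with PS-NP and 4.39, 3.80 and 3.87 CPM in controls. The count rests on few reads: for miR-8112 the nearest libraries of the groups differed by less than 0.1 CPM.

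miR-7047-3p measured 31.5, 17.8 and 17.4 CPM with PS-NP and 36.5, 34.8 and 23.1 CPM in controls. PS-NP library 1 lay among the controls, and without it the log2 difference was −0.84, against −0.51 (SE 0.31) in all libraries. miR-8114 measured 24.9, 14.7 and 12.0 CPM with PS-NP and 24.5, 23.0 and 19.5 CPM in controls. PS-NP library 1 was the highest of its 6 libraries, and the log2 difference of −0.38 (SE 0.30) was −0.74 without it. Both reached an unadjusted p under 0.05 only without that library, and neither was called after adjustment. miR-7080-3p measured 16.1, 17.0 and 27.2 CPM with PS-NP and 25.7, 40.1 and 13.2 CPM in controls, and its log2 difference of −0.39 (SE 0.40) was 0.044 without control library 2. miR-7224-3p, within an intron of B3galt1, had 14.9, 24.4 and 18 CPM with PS-NP and 25.2, 25.9 and 17.6 CPM in controls, with a log2 difference of −0.26 (SE 0.27) that lay between −0.49 (PS-NP 2 omitted) and −0.12 (PS-NP 1 omitted).

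Others were closer between the groups. miR-7019-3p, at the end of an intron of Pink1, a mitochondrial kinase gene, measured 14.1, 8.68 and 11.1 CPM with PS-NP and 15.4, 7.60 and 10.3 CPM in controls. miR-6516-5p measured 13.4, 8.90 and 8.51 CPM with PS-NP and 11.8, 8.34 and 11.1 CPM in controls. Their log2 differences were 0.02 (SE 0.33) and −0.03 (SE 0.29). Among the 12 late-numbered names of lowest unadjusted p were also miR-6970-3p (−1.09, SE 0.64), from a short intron of the RNA helicase gene Skiv2l, miR-6940-3p (−0.59, SE 0.38), miR-7046-3p (−0.70, SE 0.57) and miR-5621-3p (−0.39, SE 0.32), with means of 1.05 to 5.74 CPM with PS-NP and 1.70 to 7.57 CPM in controls. miR-6412, at 9.0, 5.57 and 5.70 CPM with PS-NP and 6.13, 4.83 and 5.00 CPM in controls, had a log2 difference of 0.33 (SE 0.33), and of 0.078 without PS-NP library 1. With one library left out, miR-6970-3p ranged between −2.07 (PS-NP 3 omitted) and −0.77 (PS-NP 2 omitted). miR-6940-3p was −0.21 without control library 1, and miR-5621-3p was −0.70 with PS-NP 3 omitted and −0.24 with PS-NP 2 omitted.

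Of the 39 tested, 31 (79.5%) had a log2 difference below 0, against 333 of 639 (52.1%), and the median was −0.27 against −0.02 for all tested. These describe the 39 that passed the read filter and were not tested. GC content moved with the differences in the whole table. Among tested sequences of at least 55% GC the median was −0.39 for 21 late-numbered names and −0.20 for the 178 others, and under 55% it was −0.10 for 18 and 0.10 for 422. With the trend with GC removed from each library, the median of the 39 was −0.15 and that of all tested 0.01. It also leaned on single libraries: the median deviation of the 39 from their own mean over the libraries was −0.04, −0.17 and −0.03 log2 units in PS-NP libraries 1, 2 and 3, and 0.26, 0.22 and −0.15 in control libraries 1, 2 and 3. Control library 3 thus stood with the PS-NP libraries. Without it the median was −0.44, over the 38 that still passed the read filter. Without control library 2 it was −0.12, over 37. The other tested sequences of at least 55% GC gave −0.01, −0.13 and −0.09 with PS-NP and 0.13, 0.24 and −0.08 in controls, with control libraries 1 and 2 again the highest and PS-NP library 2 the lowest. The part of GC content in the median of the 39 was not tested further.

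**Figure D5:**
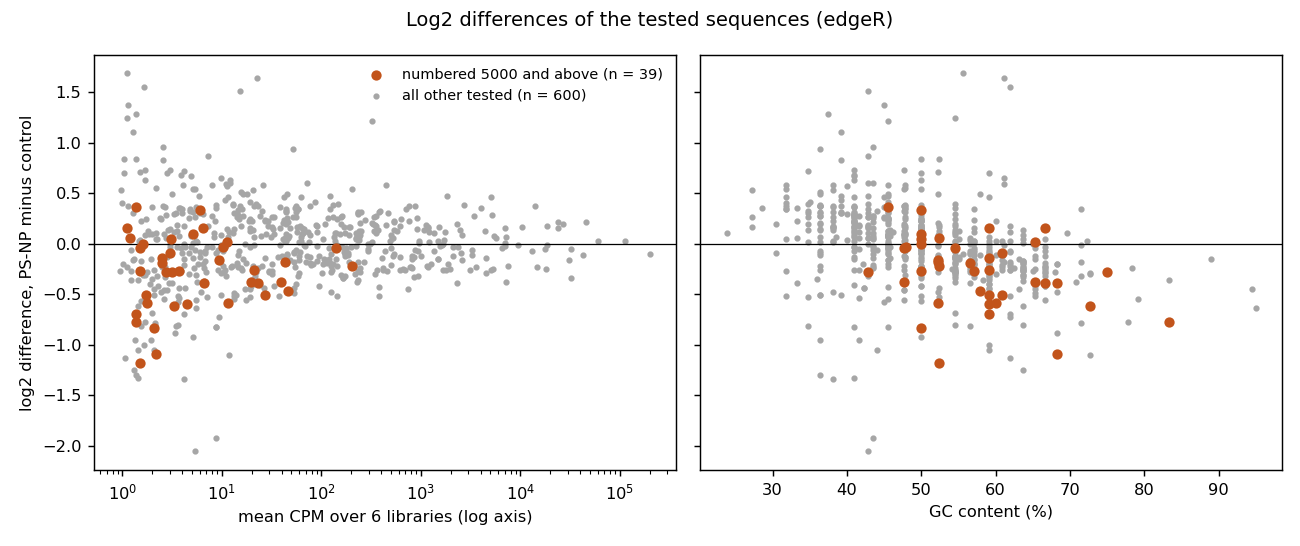
Log2 difference (PS-NP minus control, edgeR) of the tested sequences against their mean CPM (left, log axis) and their GC content (right), with the 39 names numbered 5000 and above in orange and the other tested sequences in grey. Most orange points, 31 of 39, lie below 0, and the grey points also fall as GC content grows.

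By position, the 23 tested sequences from hairpins at an intron end had a median log2 difference of −0.27, with 18 below 0, and the 16 from elsewhere −0.24, with 13 below 0. The older mirtrons miR-702, miR-877, miR-1224, miR-1981 and miR-1982, taken as a list for comparison, gave 8 tested sequences. All 8 had a log2 difference below 0, from −0.48 to −0.07, and 0 of the 8 passed the test (0% of all 639). Below 0 were also 141 of the 178 other tested sequences of at least 55% GC (79.2%), but 161 of the 422 under 55% GC (38.2%). The older mirtron sequences miR-1981-3p and miR-1982-3p, at 50% GC, belong to the lower class. Of the late-numbered names, 18 of 21 in the higher class and 13 of 18 in the lower class were below 0. The list leaves out later names: of all 23 tested sequences outside the late numbers with a hairpin at an intron end, the older list included, 15 were below 0, with a median of −0.18 and a range of −0.57 to 0.70, a count made after the values were seen. Of the older mirtrons, miR-877-3p measured 181, 141 and 115 CPM with PS-NP and 207, 193 and 152 CPM in controls, with overlapping groups. miR-1981-5p measured 294, 321 and 241 CPM with PS-NP and 299, 334 and 270 CPM in controls, and these groups overlapped too.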

How the data were processed

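Small RNA of mouse prefrontal cortex was sequenced from Trizol RNA with TruSeq Small RNA libraries, and reads of adapter dimers, low complexity, rRNA, tRNA, snRNA, snoRNA and repeats were removed with ACGT101-miR, per the labels' protocols. None of the sources used here gives the aligner, build or miRBase release. The deposited raw columns hold estimated counts, with reads divided equally among entries of 1 sequence (1115 entries, 1013 sequences). After adding these, 301 of 4635 values above 0, in 100 sequences, were still not whole, and how those reads were divided is not stated. The deposited norm columns hold a normalized signal, the raw value times 1 factor per library, used for an alternative only. Another 3 lines were not analysed here.

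The values of identical sequences were added and rounded. Those reaching 10 reads in 3 or more libraries (639) were tested with edgeR 4.0.16 (TMM, quasi-likelihood, Benjamini-Hochberg at 0.05, group only; common biological coefficient of variation 30.6%), after a test on simulated data. DESeq2 1.42.0 and limma 3.58.1 were alternatives. CPM uses TMM-scaled sizes. Intervals cover the spread between libraries. Same-numbered libraries of the 2 groups deviated together for numbers 1 and 2 (r 0.43 and 0.15) but not for 3 (−0.17), so the numbers were not taken to pair the libraries and no block was used. Hairpins were placed by name on GENCODE M21 and RefSeq GRCm38.p6. Mature sequences of 104 of the 126 names were in the RefSeq table, and 52 of these were identical to the listed sequence. Named sequences are the 12 most abundant, the 12 of lowest unadjusted p, hairpins with both arms tested, GC extremes, the names nearest the number limit and the older mirtrons; others were chosen after their values were seen. Members and lists were chosen with earlier results of these data known. The host gene and position of 1 sequence are not reported here.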

Additional observations from a re-analysis of the deposited data

How the results depend on the processing

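No late-numbered name was called at an adjusted p of 0.05 in any of the 18 other fits (0 in each). At an unadjusted p under 0.05, where the reported fit had 0, limma-voom, unsummed entries and a fit on mouse names alone each had 1, and fits that left out one library had 0 to 2. The median log2 difference of −0.27 ran from −0.44 (without control library 3, over 38 sequences) to −0.12 (without control library 2, over 37). It was −0.20 with a replicate block, −0.15 with the GC trend removed and −0.11 with both. For names under 55% GC, a split added after seeing the data, it was −0.10. The block changed no call. The share of reads, −0.0110 points, ran from −0.0214 to 0.00454 with one library left out. Of 35 sequences with reads in all 6 libraries, 25 had at least 10 reads in each, 23 did so after scaling to the smallest library, and 35 to 40 were complete with one library left out. Among 25 named sequences, 28 of 433 values turned sign, and 16 sequences turned in none of the fits that held them. A filter left the sequence out in 17 further cases, among them miR-6948-3p without any one control library. Signs turned for mir-6236-p5, mir-6240-p5 and mir-6240-p3 with limma-voom (0.082, 1.86 and 0.14), the replicate block (0.075, 0.57 and 0.051) and the block with the GC trend removed (0.15, 0.84 and 0.022), and for mir-6240-p5 (0.26) and miR-7080-5p (0.066) with the GC trend removed. With one library left out, values ran from −0.94 to 0.70 for mir-6236-p5, −0.88 to 1.73 for mir-6240-p5, −0.85 to 0.55 for mir-6240-p3, −0.51 to 0.091 for miR-6540-5p, −0.37 to 0.15 for miR-5099, −0.26 to 0.075 for miR-6516-5p, −0.19 to 0.34 for miR-7019-3p, −0.53 to 0.26 for miR-7080-5p and −0.71 to 0.044 for miR-7080-3p. The causes were not tested. Read numbers limit these results: 87 of the 126 names were below the filter, and the fit without a filter called 0.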
